A study of Mus musculus with 34 samples.

Results

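The Janus kinase genes Jak1, Jak2, Jak3 and Tyk2, the STAT genes Stat2, Stat3, Stat5b and Stat6, and Irf9 were followed through RNA sequencing of the mouse hippocampus. These 9 genes were selected by gene name from the 55385 genes of the deposited tables. All 9 passed the filter on low counts that left 17518 genes for testing. The libraries came from poly(A) RNA of whole hippocampus of 34 mice at 6 months of age, 16 females and 18 males. The labels do not give litters, so p-values measure the spread between these libraries. Each mouse was wild-type (WT, C57BL/6J), Dp16, 5xFAD or carried both alterations (5xFAD-Dp16). Sham animals received 0.5% methylcellulose by gavage each day for a month, and treated animals received tofacitinib at 15 mg/kg on the same schedule. WT was represented by 5 sham and 5 tofacitinib libraries, Dp16 by 3 and 5, 5xFAD by 4 and 5, and 5xFAD-Dp16 by 3 and 4. The series' design text names 4 sham 5xFAD-Dp16 and 6 tofacitinib 5xFAD mice, and the mice beyond the 34 were not analysed here.

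Dp16 mice model Down syndrome through a duplication of part of mouse chromosome 16, which carries 4 genes for receptor chains of interferons and interleukins. 5xFAD mice model amyloid deposition through human transgenes driven by the Thy1 promoter, so the transgenes act from neurons. None of the 9 genes lies in the duplicated segment. Tofacitinib is a small molecule that blocks the catalytic activity of Janus kinases, and the series' title names JAK1 and JAK3 as its targets. An inhibitor of this kind acts on the proteins, and the libraries report RNA only.

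In GRCm38 coordinates, Jak1 spans chr4:101152367-101265282 (minus strand), Jak2 chr19:29251828-29313080 (plus), Jak3 chr8:71676296-71690575 (plus) and Tyk2 chr9:21104068-21131243 (minus). Stat3 (chr11:100885098-100939540) and Stat5b (chr11:100780731-100850724) are neighbours on the minus strand, and Stat2 (chr10:128270559-128292849) and Stat6 (chr10:127642986-127660957) lie on the plus strand of another chromosome. Irf9 spans chr14:55603571-55610030 on the plus strand.

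In JAK-STAT signalling a cytokine brings receptor chains together, the Janus kinases bound to those chains phosphorylate each other and the receptor, and STAT proteins are phosphorylated there, pair and enter the nucleus. Type I interferons act through JAK1 and TYK2 and through ISGF3, a complex that contains STAT2 and IRF9, which binds the interferon-stimulated response element. In brain tissue STAT3 is known for its role in reactive astrocytes, and interferon signalling for a transcriptional state of microglia near amyloid plaques.

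The promoters of Irf9 and Stat2, which encode the ISGF3 subunits in the set, are shown because Irf9 was the gene of the set that passed the test in any comparison and Stat2 encodes its partner. RefSeq gives 2 windows for Irf9, of which the first is shown. The sequences are RefSeq windows of 300 bases in GRCm38.p6, from 250 bases before to 50 bases after an annotated start, on the plus strand for both genes. The Irf9 window is chr14:55603735-55604034 and the Stat2 window is chr10:128270248-128270547. The 2 Irf9 windows lie inside the Irf9 span given above, so the bases before that span were not searched. Capitals mark a match to the core of the interferon-stimulated response element, 2 copies of GAAA with 2 free bases between them, searched on both strands.
Irf9: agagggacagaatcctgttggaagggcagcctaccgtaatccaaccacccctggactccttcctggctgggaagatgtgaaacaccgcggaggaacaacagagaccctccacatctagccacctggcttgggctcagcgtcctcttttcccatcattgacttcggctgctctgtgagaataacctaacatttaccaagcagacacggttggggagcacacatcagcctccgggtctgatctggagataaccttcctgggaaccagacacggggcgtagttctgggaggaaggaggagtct
Stat2: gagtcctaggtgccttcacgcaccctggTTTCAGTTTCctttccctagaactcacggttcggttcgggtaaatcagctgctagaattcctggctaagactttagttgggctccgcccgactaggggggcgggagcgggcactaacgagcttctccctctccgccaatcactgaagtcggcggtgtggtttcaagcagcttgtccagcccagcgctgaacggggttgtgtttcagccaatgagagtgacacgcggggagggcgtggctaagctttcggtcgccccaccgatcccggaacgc

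The match in Stat2 is on the minus strand and its first base is at position -222 from the start. Of the 11 promoter windows that RefSeq gives for the 9 genes, it was the only 1 with this motif, and 3.44% of all 32851 windows held it. The STAT motif TTCNNNGAA was in none of the 11 windows and in 8.3% of all. No match says only that these letters are not in the window.

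Library totals ranged from 14.9 to 21.1 M counts with a median of 17.8 M. Levels are given as the authors' RPKM, read numbers scaled to gene length in kilobases and to library size in M, which can be compared between genes. Differences are log2 fold changes of the counts with their standard error (SE), called at an adjusted p under 0.05. Animals were the replicates, and in whole tissue fewer cells of a type and less RNA per cell cannot be told apart. A total of 3 libraries were low in markers of the hippocampal subfields: WT tofacitinib 3, 5xFAD tofacitinib 2 and 5xFAD-Dp16 sham 4. Their summed marker level was at most 1027 CPM (counts per M), against 1401 to 2316 CPM in the other 31, and several results are given with and without them.

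The kinase genes held both the highest and the lowest level of the set. Jak1, which serves interferon and many cytokine receptors, had a median of 34.2 RPKM over the 34 libraries. Stat3 followed at 7.48, Jak2 at 6.41, Stat5b at 4.01, Stat2 at 3.72, Stat6 at 2.89, Irf9 at 2.71, Tyk2 at 1.66 and Jak3 at 1.10 RPKM. Jak1 ranked at the 89.1th percentile of the genes tested by level, and Jak3 at the 27.6th. For every member, groups that were neighbours in the order of mean level had overlapping ranges.

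**Figure D1:**
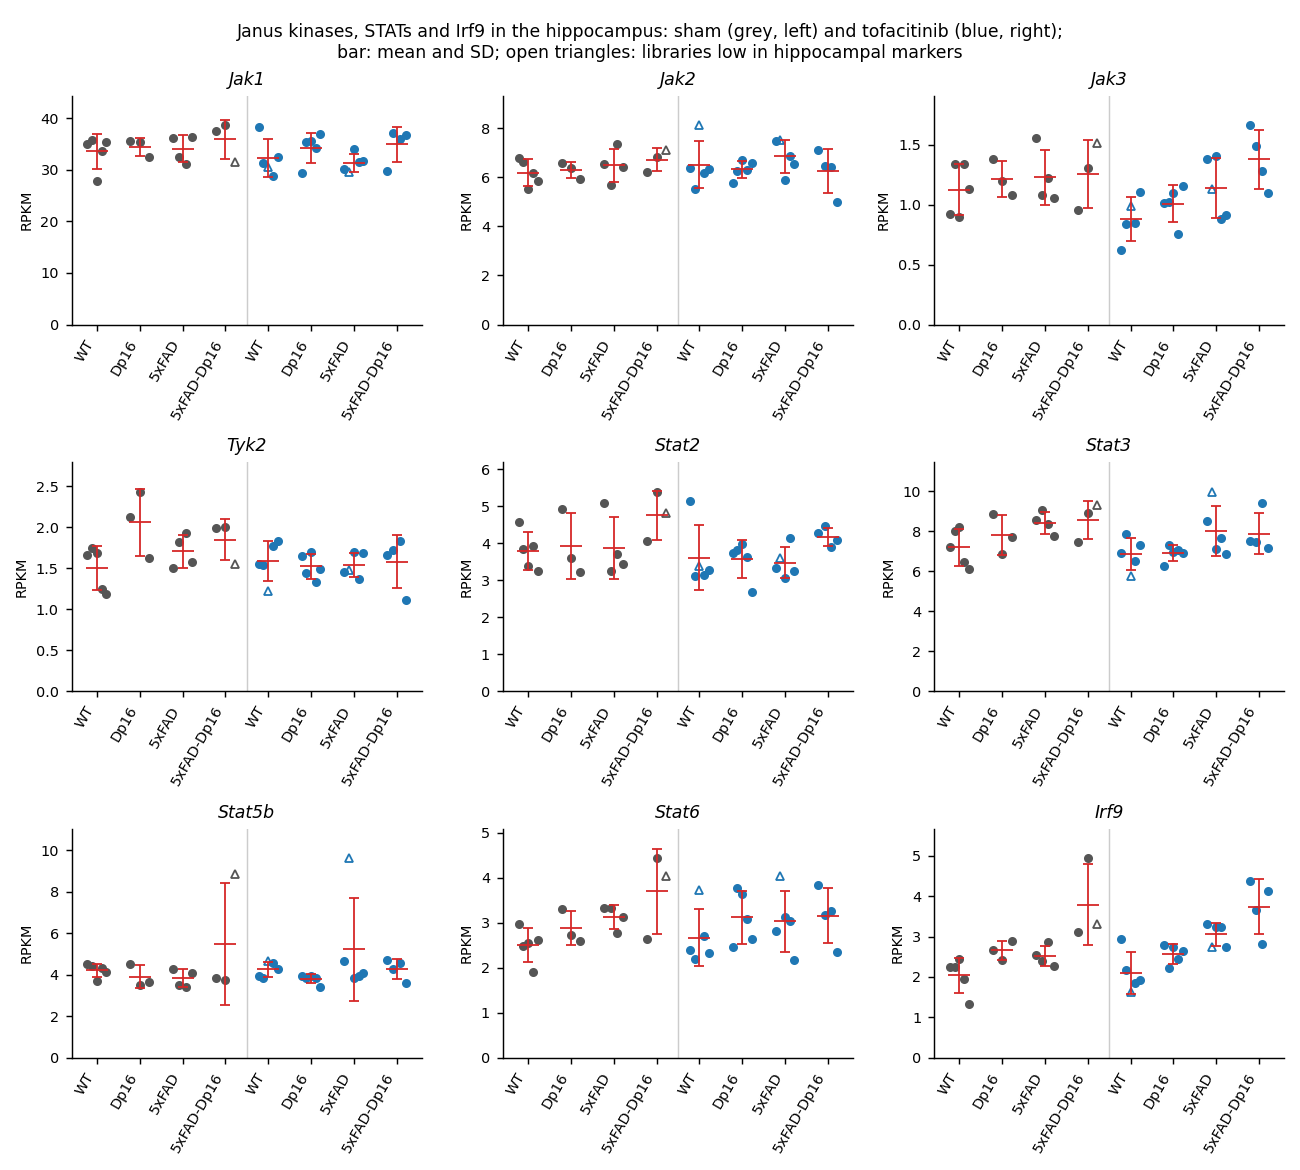
RPKM of the 9 genes (vertical axes, each from 0) in every library of the 8 groups, sham in grey and tofacitinib in blue. Points are libraries, red bars give mean and SD, and open triangles are the 3 libraries low in hippocampal markers. Irf9 was highest in the 2 5xFAD-Dp16 groups, and Stat5b was above 8 RPKM in 2 open triangles alone.

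Among the kinases, Jak1 dominated the RNA. It made up a median of 79.0% of the summed RPKM of the 4 kinase genes, from 74.1% to 83.6% over libraries. Jak2, the kinase of hormone-like cytokine receptors, made up 14.5%, Tyk2, the partner of JAK1 at the type I interferon receptor, 3.80%, and Jak3, which pairs with the common gamma chain of lymphoid cytokine receptors, 2.62%. No kinase gene was called in any of the 17 comparisons.

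Jak1 and Jak2 kept within a narrow band across genotypes. Group means of Jak1 ran from 31.4 ± 1.75 RPKM (SD, n = 5) in 5xFAD tofacitinib to 35.9 ± 3.78 (n = 3) in 5xFAD-Dp16 sham, a ratio of 1.14. The largest ratio of group means for Jak2 was 1.11. In 5xFAD-Dp16 against WT sham animals the log2 fold change of Jak1 was 0.07 with a 95% interval from -0.17 to 0.30, and that of Jak2 was 0.08 with an interval from -0.13 to 0.29.

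Tyk2 differed most in Dp16 sham animals, without passing the test. Its levels were 2.12, 2.43 and 1.62 RPKM in Dp16 sham and 1.66, 1.75, 1.68, 1.24 and 1.18 in WT sham. In Dp16 tofacitinib they were 1.65, 1.44, 1.70, 1.33 and 1.49. The highest 2 Dp16 sham values lay above every WT sham and every Dp16 tofacitinib value, and the third lay among them. The log2 fold change of Dp16 against WT sham was 0.43 (SE 0.17, unadjusted p = 0.0159, adjusted p = 0.512). For tofacitinib in Dp16 it was -0.43 (SE 0.17, unadjusted p = 0.0145, adjusted p = 1). The 2 comparisons share their Dp16 sham libraries, so these values are not independent. An unadjusted p under 0.05 was found for 7.29% of all genes in the first and for 1.98% in the second.

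Jak3 was the kinase gene with the largest ratio between groups, 1.57. Its levels were 1.66, 1.48, 1.28 and 1.09 RPKM in 5xFAD-Dp16 tofacitinib and 0.618, 0.834, 0.992, 0.848 and 1.11 in WT tofacitinib. Of the 4 values of 5xFAD-Dp16, 3 lay above all 5 of WT. The difference was 0.61 on the log2 scale (SE 0.20, adjusted p = 0.285), and it was 0.66 (adjusted p = 0.219) without the 3 libraries low in hippocampal markers. Jak3 had 46 to 139 counts per library, the fewest of the set, and 404 of its 5352 exon bases are shared with Insl3 on the same strand, a gene at a median of 0 RPKM.

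The STAT genes did not pass the test in any comparison either, and their differences were small. Stat3, a target of the interleukin 6 family, was higher by 0.19 (SE 0.06, adjusted p = 0.0823) with the 5xFAD transgenes, averaged over the 4 pairs of groups that differ in them. Sham levels were 8.54, 9.08, 8.34 and 7.74 RPKM in 5xFAD and 7.20, 8.01, 8.23, 6.45 and 6.09 in WT. The 2 sham ranges overlapped, with 3 of 4 5xFAD values above every WT value. Leaving out 5xFAD-Dp16 sham 1 gave an adjusted p of 0.0473 and a difference of 0.21, and leaving out the 3 libraries low in hippocampal markers gave 0.15 (adjusted p = 0.319).

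Stat6, which carries interleukin 4 and interleukin 13 signals, was at 2.64, 4.42 and 4.03 RPKM in 5xFAD-Dp16 sham and at 2.96, 2.47, 2.55, 1.90 and 2.62 in WT sham. A pair of the 5xFAD-Dp16 values stood above all of WT, and the third was inside the WT range. The log2 fold change was 0.52 (SE 0.19, unadjusted p = 0.0120, adjusted p = 0.210). Among all genes 14.3% had an unadjusted p under 0.05 in this comparison. The log2 fold change of Stat6 was 0.33 without 5xFAD-Dp16 sham 2, the animal at 4.42 RPKM. It was 0.44 (adjusted p = 0.598) without the 3 libraries low in hippocampal markers. Over both treatments and backgrounds the transgene difference of Stat6 was 0.22 (SE 0.09, adjusted p = 0.377).

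Stat2 had its highest group means in the doubly altered groups, with 4.06, 5.38 and 4.80 RPKM in 5xFAD-Dp16 sham against 4.56, 3.84, 3.38, 3.91 and 3.24 in WT sham. The ranges overlapped through the lowest 5xFAD-Dp16 and the highest WT value. Its log2 fold change was 0.25 with an interval from -0.06 to 0.55 (adjusted p = 0.462). The corresponding value among tofacitinib animals was 0.18 (interval from -0.10 to 0.46). Single libraries of other groups reached such levels of Stat2 too, with WT tofacitinib 1 at 5.15, 5xFAD sham 1 at 5.08 and Dp16 sham 1 at 4.93 RPKM.

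Stat5b, which mediates growth hormone and prolactin signals, was set apart by 2 libraries and not by a group. It was at 9.61 RPKM in 5xFAD tofacitinib 2 and at 8.87 in 5xFAD-Dp16 sham 4, while the 31 libraries with hippocampal markers in range lay between 3.41 and 4.72. The summed level of markers of thalamus and habenula was 1946 and 1361 CPM in those 2 libraries and 164 to 666 CPM in the 31 others. In WT tofacitinib 3, the third library low in hippocampal markers, thalamic markers were at 223 CPM and Stat5b was at 4.65 RPKM. Thalamic markers were not alone in this. Oligodendrocyte markers averaged 8.80 and 9.03 log2 CPM in 5xFAD tofacitinib 2 and 5xFAD-Dp16 sham 4, against 7.49 to 8.38 in the 31 others. Oligodendrocyte precursor markers averaged 5.75 and 5.60, against 5.18 to 5.59. The part of neighbouring tissue or of cell types in the Stat5b values was not tested.

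With these libraries the mean of Stat5b in 5xFAD-Dp16 sham was 5.49 ± 2.93 RPKM (SD, n = 3), and without them it was 3.80 ± 0.0368 (n = 2). In 5xFAD tofacitinib it was 5.22 ± 2.48 (n = 5) with them and 4.13 ± 0.374 (n = 4) without them. The log2 fold change of 5xFAD-Dp16 against WT sham turned from 0.33 (adjusted p = 0.509) to -0.19 (adjusted p = 0.733), and neither passed the test. The averaged transgene difference went from 0.19 to 0.0022.

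**Figure D2:**
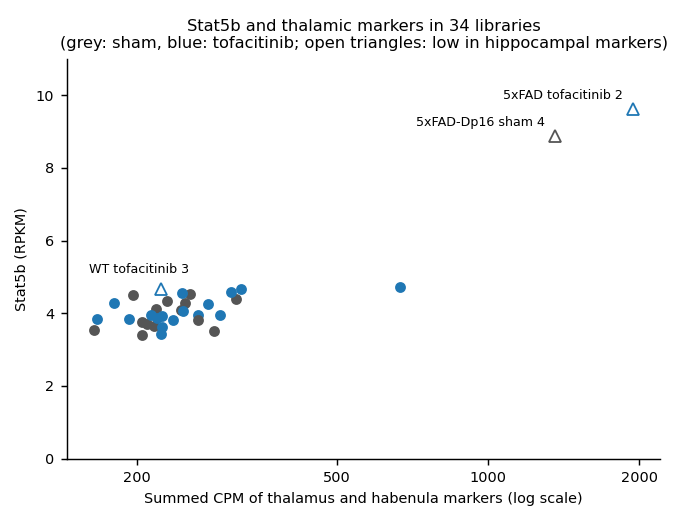
Stat5b in RPKM (vertical axis) against the summed CPM of thalamus and habenula markers (horizontal log axis) in the 34 libraries, sham in grey and tofacitinib in blue. The 2 libraries above 8 RPKM are 5xFAD tofacitinib 2 and 5xFAD-Dp16 sham 4, and they also have the highest levels of these markers, 1946 and 1361 CPM.

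Irf9, the DNA-binding subunit of ISGF3, was the single gene of the set that was called, and it was higher where both alterations were present, in sham and in tofacitinib animals. In 5xFAD-Dp16 sham it was at 3.11, 4.94 and 3.32 RPKM, and in WT sham at 2.25, 2.24, 2.44, 1.94 and 1.34. Dp16 sham animals were at 2.67, 2.42 and 2.89 RPKM. The 5xFAD sham animals were at 2.53, 2.40, 2.86 and 2.27.

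All 3 5xFAD-Dp16 sham values lay above every value of the other 3 sham genotypes, and the Dp16 and 5xFAD values overlapped each other and WT. Among all genes tested, 4.25% had such a gap upward between 5xFAD-Dp16 and WT sham, 4.97% between 5xFAD-Dp16 and 5xFAD sham and 6.56% between 5xFAD-Dp16 and Dp16 sham. Irf9 was the only member with a gap between 2 groups in any of the 12 comparisons of 2 groups. In the remaining comparisons and directions, 0.234% to 4.8% of genes had a gap and 0 of 9 members did.

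The log2 fold change of Irf9 in 5xFAD-Dp16 against WT sham was 0.84 (SE 0.19, adjusted p = 0.0177). This made 1 of 9 members called, higher, where 0.959% of the 17518 genes were called in either direction and 0.816% were called higher. The call was lost without 5xFAD-Dp16 sham 2, the animal with 4.94 RPKM (0.57, adjusted p = 0.103), without WT sham 5 (0.74, adjusted p = 0.0588), and in a fit of the 2 groups alone (0.78, adjusted p = 0.311). Without the 3 libraries low in hippocampal markers it was 0.92 (adjusted p = 0.0298).

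Each alteration alone gave a smaller difference that was not called in sham animals. Dp16 against WT was 0.36 (SE 0.19, adjusted p = 0.717), and 5xFAD against WT was 0.35 (SE 0.17, adjusted p = 0.978). In those 2 comparisons 0 of 9 members were called, with 0.308% and 0.445% of all genes called. These comparisons share their WT libraries. The 5xFAD-Dp16 animals differed from 5xFAD by 0.49 (SE 0.20, adjusted p = 0.349) and from Dp16 by 0.48 (SE 0.21, adjusted p = 0.668), and there 0.268% and 0% of genes were called. Without 5xFAD-Dp16 sham 2 these values of Irf9 were 0.24 and 0.21. By the unadjusted test, 2006 and 1275 genes passed in these 2 comparisons, Irf9 among them, and DESeq2 called 115 and 11 genes.

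Tofacitinib-treated animals showed the same order of Irf9 at its ends. Levels were 4.37, 3.66, 2.81 and 4.13 RPKM in 5xFAD-Dp16 and 2.94, 2.16, 1.62, 1.84 and 1.92 in WT. In 5xFAD they were 3.30, 2.74, 3.24, 3.24 and 2.75, and in Dp16 2.79, 2.21, 2.75, 2.44 and 2.65. The ranges of 5xFAD-Dp16 and WT overlapped through WT tofacitinib 1 and 5xFAD-Dp16 tofacitinib 3, and the other values did not cross.

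Under tofacitinib the log2 fold change of 5xFAD-Dp16 against WT was 0.81 (SE 0.17, adjusted p = 0.0126), again 1 of 9 members, with 0.537% of genes called and 0.525% called higher. The adjusted p was 0.0545 without WT tofacitinib 3 and 0.0998 without 5xFAD-Dp16 tofacitinib 4, and in a fit of the 2 groups alone it was 0.147. The 5xFAD difference was 0.55 (SE 0.16, adjusted p = 0.262) and the Dp16 difference was 0.27 (SE 0.16, adjusted p = 1.00), with 0 members called beside 0.32% and 0.268% of genes.

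Averaged over backgrounds, the transgenes were accompanied by a rise of Irf9 of 0.48 (SE 0.09, adjusted p = 0.00133), 1 of 9 members where 1.59% of genes were called. This call held in each of the 34 fits that left out 1 library. All 9 members had a value above 0 here, with a median of 0.19, beside 50.7% of genes above 0 and a median of 0.0018. For the duplicated segment the averaged difference of Irf9 was 0.35 (SE 0.09, adjusted p = 0.0501), so 0 of 9 members were called beside 1.38% of genes. That value passed the threshold in 8 of 34 fits without 1 library. The term for an interaction of segment and transgenes was 0.06 for Irf9 (SE 0.18, adjusted p = 0.980), an interval from -0.31 to 0.43.

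**Figure D3:**
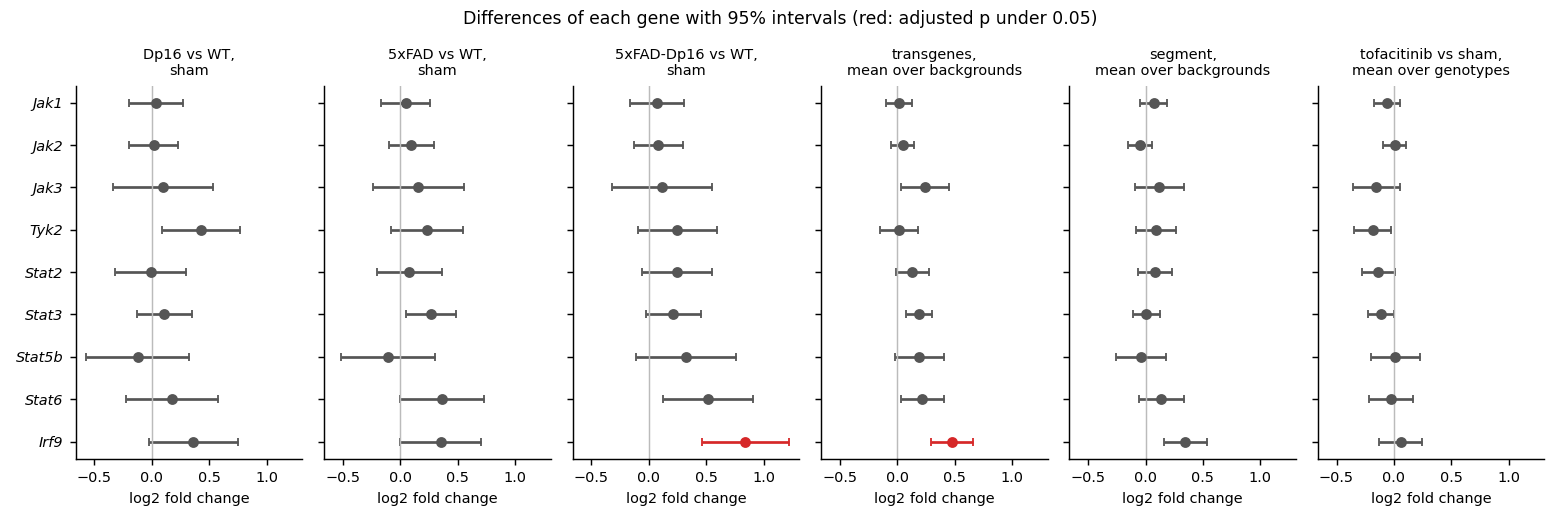
Log2 fold changes of the 9 genes (rows) with 95% intervals in 6 comparisons (panels), from the fit of all 34 libraries, with calls in red. The 2 red points are Irf9 at 0.84 in 5xFAD-Dp16 against WT sham and at 0.48 for the transgenes averaged over backgrounds.

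Microglial markers moved with the transgenes too. Of 12 microglial markers 9 were higher in the averaged transgene comparison, as were 9 of 12 markers of plaque-associated microglia, and 0 of 12 of either list passed for the segment. Among sham animals the summed microglial markers ranged from 542 to 633 CPM in WT and from 569 to 668 CPM in Dp16. The range was 690 to 1414 CPM in 5xFAD and 603 to 934 CPM in 5xFAD-Dp16. The 5xFAD-Dp16 libraries include sham 4, which was low in hippocampal markers. Its microglial markers averaged 5.00 log2 CPM, against 4.97 to 6.40 in the 31 libraries with hippocampal markers in range. No marker of either list was at 0 in all libraries. The part of microglial number in the Irf9 values was not tested. Of the 5386 exon bases of Irf9, 123 are shared with Rnf31 on the same strand. How such reads were counted is not stated in the labels.

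Of 27 known target genes of ISGF3, 17 were higher and 0 lower in 5xFAD-Dp16 against WT sham, with a median log2 fold change of 1.67 over the list and 0.01 over all genes. Lgals3bp, a secreted galectin-binding glycoprotein, was higher by 1.60 (SE 0.24, adjusted p = 0.000420). Ifit3, an antiviral protein of the IFIT family, was higher by 1.82 (SE 0.29, adjusted p = 0.000605). Oasl2, of the oligoadenylate synthetase family, was higher by 2.16 (SE 0.35, adjusted p = 0.000662), and all 3 stayed past the threshold when any 1 library of the 2 groups was left out. Lgals3bp was also called in 5xFAD against WT sham, at 1.54 (SE 0.23, adjusted p = 0.000618). In Dp16 against WT sham it was at 1.00 (SE 0.25, adjusted p = 0.0929). No target was called in 5xFAD-Dp16 against 5xFAD sham or against Dp16 sham. The targets with the smallest p were Ifit1 against 5xFAD (1.53, adjusted p = 0.0659) and Ifit2 against Dp16 (0.86, adjusted p = 0.233).

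The count of targets higher in 5xFAD-Dp16 against WT sham rested in part on 1 library. It fell to 9 of 27 without 5xFAD-Dp16 sham 4, a library low in hippocampal markers, and to 0 in a fit of the 2 groups alone, in which 0 genes of any kind were called. Under tofacitinib 5 of the 27 targets were higher in 5xFAD-Dp16 than in WT, with a median of 1.01. That count was 3 without WT tofacitinib 2, without WT tofacitinib 5 or without 5xFAD-Dp16 tofacitinib 3. Trim25, a ubiquitin ligase of antiviral sensing, was among them at 0.81 (SE 0.15, adjusted p = 0.00356).

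With the averaged transgenes 16 of 27 targets were higher, median 0.85, and with the averaged segment 6 of 27, median 0.53. The segment count was 3 without the 3 libraries low in hippocampal markers, 12 without the term for sex and 13 with DESeq2. Rsad2, which encodes the antiviral enzyme viperin, was higher with the segment by 0.82 (SE 0.16, adjusted p = 0.00353). Eif2ak2, a kinase activated by double-stranded RNA, was higher with it by 0.40 (SE 0.09, adjusted p = 0.00861). The Ifit and Oas genes are close paralogs, and the labels do not state how reads shared between copies were counted.

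Upstream of the set, the receptor genes inside the duplicated segment were higher in the comparison averaged over backgrounds. All 4 of 4 passed: Ifnar1 by 0.64 (SE 0.04, adjusted p = 7.89e-12), Ifnar2 by 0.64 (SE 0.05, adjusted p = 2.87e-10), Ifngr2 by 0.58 (SE 0.09, adjusted p = 5.51e-05) and Il10rb by 0.54 (SE 0.08, adjusted p = 1.87e-05). These genes are present in an extra copy, so their list has a direction fixed by the genotype. For the transgenes 0 of these 4 passed.

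Of 30 tested receptor genes outside the segment, 4 were higher with the averaged transgenes and 0 with the segment. Csf3r, the receptor of granulocyte colony-stimulating factor, was higher by 1.04 (SE 0.17, adjusted p = 0.000342). Csf2rb, which encodes the beta chain shared by interleukin 3 and its relatives, was higher by 0.89 (SE 0.20, adjusted p = 0.00948). Csf2rb2, which encodes a beta chain for interleukin 3 alone, was higher by 1.04 (SE 0.24, adjusted p = 0.0123). Il10ra, the binding chain for interleukin 10, was higher by 0.48 (SE 0.11, adjusted p = 0.0137), and its adjusted p was 0.0535 without 5xFAD-Dp16 sham 2. The median of the list was 0.17. The 2 beta chain genes are near-identical copies, so reads may be split between them.

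Ligand genes were rarely detected. Of 31 listed genes for interferons, interleukins and hormones that use the pathway, 10 passed the filter and 0 were called with the transgenes, the segment or tofacitinib. The ligand with the smallest p for the transgenes was Il12a at -1.11 (SE 0.32, adjusted p = 0.0772).

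Among 20 negative regulators 3 were higher with the averaged transgenes and 0 with the segment, with a list median of 0.02. Ptpn6, the phosphatase SHP-1 of blood-derived cells, was higher by 0.93 (SE 0.12, adjusted p = 1.19e-05). Ptprc, which encodes the leukocyte phosphatase CD45, was higher by 0.99 (SE 0.18, adjusted p = 0.000990). Usp18, which removes ISG15 and restrains the type I interferon receptor, was higher by 0.97 (SE 0.23, adjusted p = 0.0190), and it lost the call without Dp16 sham 2, Dp16 sham 3 or 5xFAD-Dp16 sham 2. The microglial markers given above moved in the same comparison.

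Of 10 genes for other interferon regulatory factors and their binding proteins, 2 rose with the transgenes and 0 passed for the segment. Irf8, a factor of the microglial lineage, was higher by 0.99 (SE 0.13, adjusted p = 6.09e-06), and Irf7, an interferon-induced amplifier of interferon genes, by 0.87 (SE 0.16, adjusted p = 0.00123). Irf7 and Usp18 are also among the 27 ISGF3 targets. Irf7 was higher in 5xFAD-Dp16 against WT sham, by 1.94 (SE 0.33, adjusted p = 0.00106).

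Targets of STAT3, STAT5 and STAT6 showed fewer calls. Of 17 STAT3 targets 2 were higher with the transgenes: Timp1, an inhibitor of matrix proteases, by 1.86 (SE 0.42, adjusted p = 0.0119) and Gfap, the intermediate filament of astrocytes, by 0.75 (SE 0.19, adjusted p = 0.0351). The mean of Timp1 includes 5xFAD against WT under tofacitinib, at 4.77. Under tofacitinib Dp16 was also above WT, by 3.73 (adjusted p = 0.190), and in WT the difference of tofacitinib against sham was -3.58. These values of Timp1 share the WT tofacitinib libraries. The call of Gfap was lost in 19 of the 34 fits without 1 library. Of 8 STAT5 and STAT6 targets 1 was higher, the growth factor gene Igf1, by 0.46 (SE 0.11, adjusted p = 0.0173). Its adjusted p reached 0.0855 in the fits without 1 library, which lost it without 5xFAD sham 2, Dp16 sham 3 or 5xFAD-Dp16 sham 4.

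Tofacitinib was accompanied by no called difference in any of the 9 genes. In WT, 5xFAD and 5xFAD-Dp16 animals and in the mean over genotypes 0% of genes were called, and in Dp16 animals 0.00571%, which is 1 gene and no member. By the unadjusted test 491, 1017, 1307 and 1354 genes passed in the first 4 of these and 347 in Dp16. DESeq2 called 1, 1, 3 and 1 genes there and 2 in Dp16.

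The intervals limit how large a drug difference in RNA could be in the mean over genotypes. For Jak1, a named target of the drug, the log2 fold change was -0.06 with an interval from -0.17 to 0.05. For Jak3, the other named target, it was -0.15 (interval from -0.36 to 0.05). Jak2 was at 0.01 (interval from -0.10 to 0.11), Irf9 at 0.06 (interval from -0.13 to 0.24) and Stat2 at -0.13 (interval from -0.28 to 0.01).

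A total of 2 members had an interval below 0 in that mean. Tyk2 was at -0.19 (SE 0.08, unadjusted p = 0.0272, adjusted p = 0.625) and Stat3 at -0.12 (SE 0.06, unadjusted p = 0.0462, adjusted p = 0.641). Among all genes 7.73% had an unadjusted p under 0.05 in this comparison. Of the 9 members 6 were below 0, with a median of -0.06 beside 0.0042 for all genes.

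In 5xFAD-Dp16 animals, where Irf9 was highest, its tofacitinib difference was 0.01 with an interval from -0.39 to 0.41. The difference of the drug effect with and without the segment was -0.16 for Irf9 (SE 0.18, adjusted p = 0.885). Of the 27 ISGF3 targets 0 were called for the drug in the mean over genotypes, with a median of -0.09, and 0 had an unadjusted p under 0.05. In 5xFAD-Dp16 animals alone 0 of 27 were called too, with 2 of 27 above 0, a median of -0.39 and 5 with an unadjusted p under 0.05. Among all genes 49.8% were above 0 in that comparison, with a median of -0.0011, and 7.46% had an unadjusted p under 0.05. Ifit2, of the IFIT family, was at -0.63 there (SE 0.17, unadjusted p = 0.00111, adjusted p = 0.668). Irf7 was at -0.83 (SE 0.34, unadjusted p = 0.0203, adjusted p = 0.668). These animals include 5xFAD-Dp16 sham 4, a library low in hippocampal markers, and the values of these targets without it are not given here. In the 7 fits of this comparison that left out 1 library, no member was called.

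The genes whose log2 CPM was most like that of Irf9 over the 34 libraries were Oasl2, Ifi204 and Ifit3, with Pearson correlations of 0.82, 0.80 and 0.78. Over the 31 libraries with hippocampal markers in range these correlations were 0.81, 0.77 and 0.82. Likeness was ranked among 14455 genes, and the points share genotype and treatment groups. For Stat5b the most like genes were Adarb1, Rora and Cacna1g at 0.92, 0.91 and 0.90, which became 0.47, 0.45 and 0.53 over the 31 libraries, so these values rest on the libraries left out. For Jak1 they were Ppp1r12a, Aak1 and Amph at 0.90, 0.88 and 0.88. For the other 6 members the highest correlation was between 0.64 and 0.73.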

How the data were processed

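Total RNA was extracted with TRIzol, and strand-specific poly(A) libraries were sequenced as paired 150 bp reads, per the labels' protocols. The submitters' processing notes list HTSeq 0.6.1, HISAT2 2.1.0, SAMtools 1.5, FastQC 0.11.5 and the build GRCm38, and the strand setting and treatment of multi-mapping reads are not given in the sources used here. The authors deposited a table of counts per gene and a table of RPKM. The deposited RPKM equals the count divided by library total and gene length, with a largest relative deviation of 9.42e-16 over 12463 genes.

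Counts were tested with edgeR 4.0.16 (R 4.3.3; TMM scaling, filterByExpr, robust quasi-likelihood F-test) in 1 fit of all 34 libraries with 8 group means and a term for sex. P-values were adjusted by Benjamini-Hochberg over 17518 genes, with a threshold of 0.05. Averaged comparisons weight the group pairs equally. The fit had 25 residual degrees of freedom. SE is the log2 fold change divided by the square root of F. The test recovered known changes in simulated data. How often it would detect differences as small as those of the members is not given here, so the simulation does not bear on uncalled genes. Summed marker levels are counts per M of the library total. Likeness used log2 CPM on TMM-scaled library sizes with a prior count of 2, for genes at a mean of at least 1 CPM.

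Members, gene lists and marker lists were chosen with earlier results of these data known. All members were described, and up to 4 genes per list and comparison were named, those with the smallest p among called genes, or 1 where none was called. An item withheld for evaluation is not reported here. Alternatives were DESeq2 1.42.0, DESeq2 size factors, no filter, no sex term, compared groups only, a replicate block, and leaving out libraries. The counts of list genes under each alternative were added after seeing the data. Promoter sequences are from RefSeq, and all 9 members matched by symbol.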

Additional observations from a re-analysis of the deposited data

Results flagged for a closer look

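Of 54 sets of 1 gene in 1 group of 4 or 5 libraries, 7 held a library far from the rest, where chance gives about 1 in 20. Jak1 was at 27.8 RPKM in WT sham 3, against 33.7 to 35.9 in the other WT sham libraries. It was at 29.8 RPKM in 5xFAD-Dp16 tofacitinib 1, against 36.1 to 37.2 in the rest of that group. Stat2 was at 5.15 RPKM in WT tofacitinib 1, where the others lay between 3.12 and 3.39. In Dp16 tofacitinib 5 Stat2 was at 2.68 RPKM and Stat5b at 3.42, below the 3.62 to 3.96 and the 3.83 to 3.96 of the other libraries of that group. Stat3 was at 9.40 RPKM in 5xFAD-Dp16 tofacitinib 3, above a range of 7.15 to 7.51.

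Stat5b in 5xFAD tofacitinib 2 was at 9.61 RPKM, against 3.84 to 4.67 in the other 4 libraries of the group. That library was also low in hippocampal markers and high in thalamic and oligodendrocyte ones, and the part of this in the value was not tested.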

How the results depend on the processing

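Over 1026 member values under the alternatives other than leaving out 1 library, 1020 kept their direction or stayed uncalled, 3 lost a call, 3 gained a call and 0 called values changed sign. Of 2439 values without 1 library, 4 lost and 9 gained a call. Irf9 in 5xFAD-Dp16 against WT sham left 0 members called in a fit of the compared groups only (adjusted p = 0.311), and 0 to 1 without 1 library. Among tofacitinib animals the count was 0 with a replicate block (0.80, adjusted p = 0.0507) and 0 with the compared groups only (adjusted p = 0.147), and 0 to 1 without 1 library. For the segment it was 1 with DESeq2 size factors (adjusted p = 0.0473), 1 with no sex term (adjusted p = 0.0209) and 1 with DESeq2 (adjusted p = 0.0181), and 0 to 1 without 1 library. For the transgenes it was 1 to 2 without 1 library. The cause of these differences was not tested.

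The labels give replicate numbers but no pairing. Deviations of same-numbered libraries had a median correlation of -0.041 over 98 pairs, against 0.0194 over 405 other pairs. The replicate block gave Irf9 0.85 (adjusted p = 0.0484) in sham animals and 0.48 (adjusted p = 0.0111) for the transgenes. With it the transgene calls of Timp1, Gfap, Igf1, Usp18, Csf2rb2, Eif2ak2 and Parp14 were lost. Usp18, Eif2ak2 and Parp14 are among the ISGF3 targets. The ISGF3 target count among tofacitinib animals was 5, and it was 11 with no filter, 10 with DESeq2 and 2 with the compared groups only. DESeq2 called 344 genes in 5xFAD-Dp16 against WT sham, where edgeR called 168. Jak3 and Irf9 had medians of 89.5 and 152.5 counts per library.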

Other observations

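Members varied together only loosely. Of the 36 pairs of members, 32 had a Pearson correlation of log2 CPM above 0 over the 34 libraries, with a median of 0.20, and Stat2 and Irf9 were at 0.46. The points share groups and library preparation. Over the 31 libraries with hippocampal markers in range, the genes most like Stat6 were Lgals3bp, Bst2 and Trim30a at 0.69, 0.68 and 0.67. Those most like Stat3 were Vav1, Lyn and Abca9 at 0.74, 0.73 and 0.70. The gene most like Jak3 over all 34 libraries was AU020206 at 0.64, followed by Lcp1 and Il4ra at 0.61 each.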
